A study of Homo sapiens with 12 samples.

Results

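The genes described here are 47 interferon-stimulated genes, that is, textbook targets of type I interferon together with the STAT2, IRF1, IRF7 and IRF9 factors of the same pathway. The rule that picks them uses gene symbols alone, but the list was drawn up with earlier results of these data known. All 47 were found among the 60664 rows of the deposited count table, and all 47 passed the filter on low counts. RNA was measured by poly(A)-captured sequencing in 12 libraries from 2 human B-cell precursor acute lymphoblastic leukaemia lines, TOM-1, which carries BCR::ABL1, and RS4;11, which carries KMT2A::AFF1. Each line contributed 3 control libraries and 3 libraries from cells given ADI-PEG20 at 1000 ng/ml for 24 h, and the controls were cultured for the same 24 h. ADI-PEG20, a polyethylene glycol-bound arginine deiminase, turns arginine into citrulline and so empties the medium of arginine. Both lines were labelled as lymphoblasts of wild-type (WT) genotype, were grown in 1 shared serum-supplemented medium and were treated in log phase, and no interferon treatment is labelled. Each line is a single established culture, and the labels do not say whether the 3 libraries of a group came from separate cultures, so the p-values measure only the spread between these libraries. The comparisons asked how arginine removal changed the transcripts within each line, and how the lines differed with and without the drug.

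Type I interferons are secreted when a cell senses foreign or misplaced nucleic acid, and they bind the IFNAR1 and IFNAR2 receptor, whose kinases JAK1 and TYK2 activate STAT factors. STAT2 and IRF9 belong to the complex ISGF3, which binds the interferon-stimulated response element (ISRE) upstream of its targets. IRF1 binds a related element, and IRF7 drives the interferon genes themselves. Many of the targets restrict viruses, others sense RNA, and a few, such as USP18, damp the signal.

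Promoters of genes in both directions of change carried the core of that element, so a set is shown here that can be read beside the expression values that follow. Of the 47 genes, 38 had a promoter in the RefSeq table (GRCh38.p14), taken as 250 bases before to 50 after a start site. The ISRE core was searched as GAAA, then any 2 bases (NN), then GAAA again, on both strands, with overlapping matches counted. It stood in a promoter of 27 of the 38 genes (71.05%), against 4.38% of the 27305 genes in the table. Genes were classed by the fit with all 12 libraries. The core was present in 11 of 18 promoters of genes that rose in TOM-1 with ADI-PEG20, in 5 of 5 that fell, and in 11 of 15 that did not pass the threshold. Without TOM-1 control replicate 3, described below, IFI6 no longer passed as lower, and IRF1, ISG20 and MX1 passed as higher. A match is a description of letters, and no binding was measured. No match was found for HERC6, OAS1, SAMD9L, SP100, SP110, STAT2 and XAF1, which also rose. The windows below hold the 170 bases before the start site, 5′ to 3′ on the strand of the gene. The ISRE core matches are in capitals. Where a gene had several promoters, that with the most matches was taken. IFIT3 and PLSCR1 had 2 promoters each. IFIH1 (chr2:162318685-162318854, minus strand), IFIT3 (chr10:89327827-89327996, plus), DDX60 (chr4:168318753-168318922, minus) and PLSCR1 (chr3:146544608-146544777, minus) rose in TOM-1.
IFIH1: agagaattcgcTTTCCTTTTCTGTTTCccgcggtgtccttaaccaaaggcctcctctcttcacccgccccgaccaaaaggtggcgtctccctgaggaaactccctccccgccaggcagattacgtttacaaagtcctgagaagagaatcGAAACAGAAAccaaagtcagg
IFIT3: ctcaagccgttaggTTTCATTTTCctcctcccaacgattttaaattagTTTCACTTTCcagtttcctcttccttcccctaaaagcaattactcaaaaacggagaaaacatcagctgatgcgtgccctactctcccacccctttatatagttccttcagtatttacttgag
DDX60: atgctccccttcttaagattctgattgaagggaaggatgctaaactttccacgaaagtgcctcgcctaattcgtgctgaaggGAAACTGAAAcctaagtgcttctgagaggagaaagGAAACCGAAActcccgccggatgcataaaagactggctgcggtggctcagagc
PLSCR1: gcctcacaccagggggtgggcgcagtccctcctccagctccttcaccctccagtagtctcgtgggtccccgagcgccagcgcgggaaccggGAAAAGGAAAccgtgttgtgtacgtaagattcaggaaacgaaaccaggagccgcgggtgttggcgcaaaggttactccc

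ISG15 (chr1:1013327-1013496, plus) and IFIT1 (chr10:89392453-89392622, plus) are among the most used markers of an interferon response and did not pass the threshold in TOM-1. BST2 (chr19:17405631-17405800, minus) and IFITM3 (chr11:320861-321030, minus) fell. All 4 windows hold 2 copies of the core, as do those of IFIT3 and DDX60.
ISG15: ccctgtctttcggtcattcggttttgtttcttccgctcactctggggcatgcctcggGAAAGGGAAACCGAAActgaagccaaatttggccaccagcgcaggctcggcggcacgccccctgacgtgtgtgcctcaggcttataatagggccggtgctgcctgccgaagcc
IFIT1: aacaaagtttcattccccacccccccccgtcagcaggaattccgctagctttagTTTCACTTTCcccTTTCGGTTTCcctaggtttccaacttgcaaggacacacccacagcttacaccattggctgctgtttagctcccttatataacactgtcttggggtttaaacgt
BST2: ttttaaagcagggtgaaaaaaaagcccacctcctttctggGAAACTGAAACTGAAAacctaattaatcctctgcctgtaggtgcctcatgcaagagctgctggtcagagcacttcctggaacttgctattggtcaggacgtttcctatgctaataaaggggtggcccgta
IFITM3: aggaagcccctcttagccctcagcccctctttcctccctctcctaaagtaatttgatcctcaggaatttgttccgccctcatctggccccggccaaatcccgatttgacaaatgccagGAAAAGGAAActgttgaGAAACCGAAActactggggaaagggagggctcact

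Total counts per library ran from 18958144 to 35956959. TOM-1 control replicate 3 stood apart. It had counts for 14963 genes, against 19857 to 21997 in the other libraries, and 17.84% of its counts lay in ribosomal protein genes, against 5.33% to 8.95%. Its correlation with the other TOM-1 controls was as low as 0.974 on the log2 scale, whereas no RS4;11 or treated TOM-1 library fell below 0.996 with its own group. Counts of the 47 genes called are therefore given with all 12 libraries and without this one, as are values of single genes in TOM-1 that rest on it. All 10 B-lineage markers checked, PAX5 among them, were above 3 counts in each group. Markers of other blood cells are given as summed CPM, counts scaled to a fixed library total. Of 9 T- and NK-cell markers, 3 were above 3 counts in TOM-1, namely TRAC, NKG7 and GNLY. CD2, CD3D, CD3E, CD3G, CD8A and KLRD1 were at 0 there. The list summed to 150.4 to 279.3 CPM in control TOM-1 and 180.8 to 193.6 with the drug. In RS4;11 it summed to 475.1 to 537.9 in control and 479.7 to 512.2 with the drug, and CD3G and KLRD1 were at 0 in all 6 libraries. The 8 myeloid markers summed to 10.2 to 26.7 CPM over all libraries, and the 5 erythroid markers to at most 0.496. The part of these markers in the results was not tested.

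In that library the interferon-stimulated genes departed in both directions, as the plot of its ratio against gene length shows. Among the 38 genes with at least 20 counts, 7 were at least 2-fold above the mean of replicates 1 and 2: BST2, IFI6, IFITM2, IFITM3, IRF7, ISG15 and ISG20. Another 8 were at least 2-fold below it: ADAR, HERC6, IFIT3, OAS3, PARP14, SAMD9, SAMD9L and XAF1. The log2 ratio fell with exonic length across these 38 genes (Pearson r = -0.59, Spearman rho = -0.54), a description in which every point shares the same 3 libraries. The part of length in the results was not tested.

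**Figure D1:**
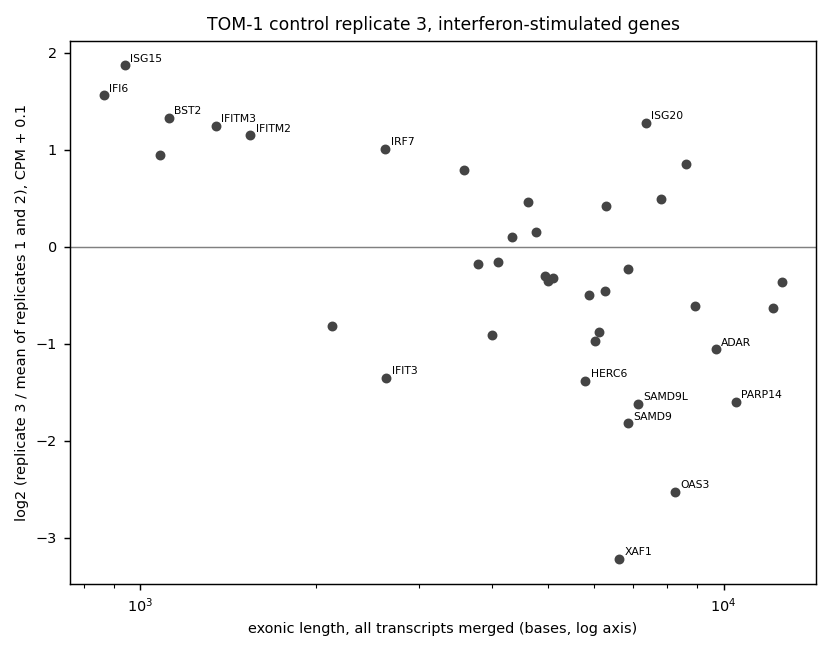
Log2 ratio of TOM-1 control replicate 3 to the mean of replicates 1 and 2 (vertical axis, CPM + 0.1) against exonic length in bases on a log axis, one point for each of the 38 genes with at least 20 counts; genes beyond 2-fold are named. The short genes ISG15, IFI6, BST2, IFITM3 and IFITM2 lie above 0, and XAF1, OAS3 and SAMD9 lie lowest.

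A gene was treated as at the floor in a group when all 3 libraries held 3 counts or fewer, the highest true value that a reading of 0 leaves room for; floors and intervals cover counting error only. In control TOM-1 this held for 4 genes, CMPK2, IFI27, IFI44 and RSAD2, and the last 2 had no count at all in any of the 3 libraries. In treated TOM-1 it held for CMPK2 alone. In control RS4;11 OASL had 0 counts in each library, and in treated RS4;11 EPSTI1, IFI44L and OASL were at the floor. The other 40 genes were above the floor in every group.

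ADI-PEG20 moved most of these genes in TOM-1, and most of those that moved went up. With all 12 libraries, 27 of 47 passed an adjusted p of 0.05 in edgeR's quasi-likelihood test (57.4%, against 31.9% of all 17349 genes tested); 21 rose and 6 fell. The share that rose, 44.7%, stood against 15.9% of all genes, while the share that fell, 12.8%, was close to the 15.9% of all genes that fell. The median log2 fold change was 0.82, against 0.048 over all genes. The list was drawn up with earlier results of these data known, so shares here and below describe it and test no enrichment. On a further list of interferon targets, drawn up likewise, 8 of 37 tested rose and 8 fell, with a median of -0.03. Of the 21, 17 rose by at least 2-fold, IFI27, IFI44 and RSAD2 among them from controls at the floor. Without control replicate 3, DDX60L (0.99), HERC6 (0.94), SP110 (0.97) and STAT2 (0.79) rose by less than 2-fold. The share of all genes that rose 2-fold was not counted. Without control replicate 3, 31 genes passed (against 41.6% of all genes), 25 higher and 6 lower (against 21.8% and 19.8%), with a median of 0.66. Of the 27, all but IFI6 passed in both fits, and IRF1, ISG20, MX1, MX2 and OAS2 passed only without that library. When the 6 TOM-1 libraries were fitted alone, 15 of 44 passed, 11 higher and 4 lower, against 17.2% of all genes. The libraries did not overlap between groups for 26 genes that were higher with the drug and for 6 that were lower, where 26.1% and 20.1% of all genes did so. In these bulk samples a change in the number of cells expressing a gene and a change in RNA per cell cannot be told apart.

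**Figure D2:**
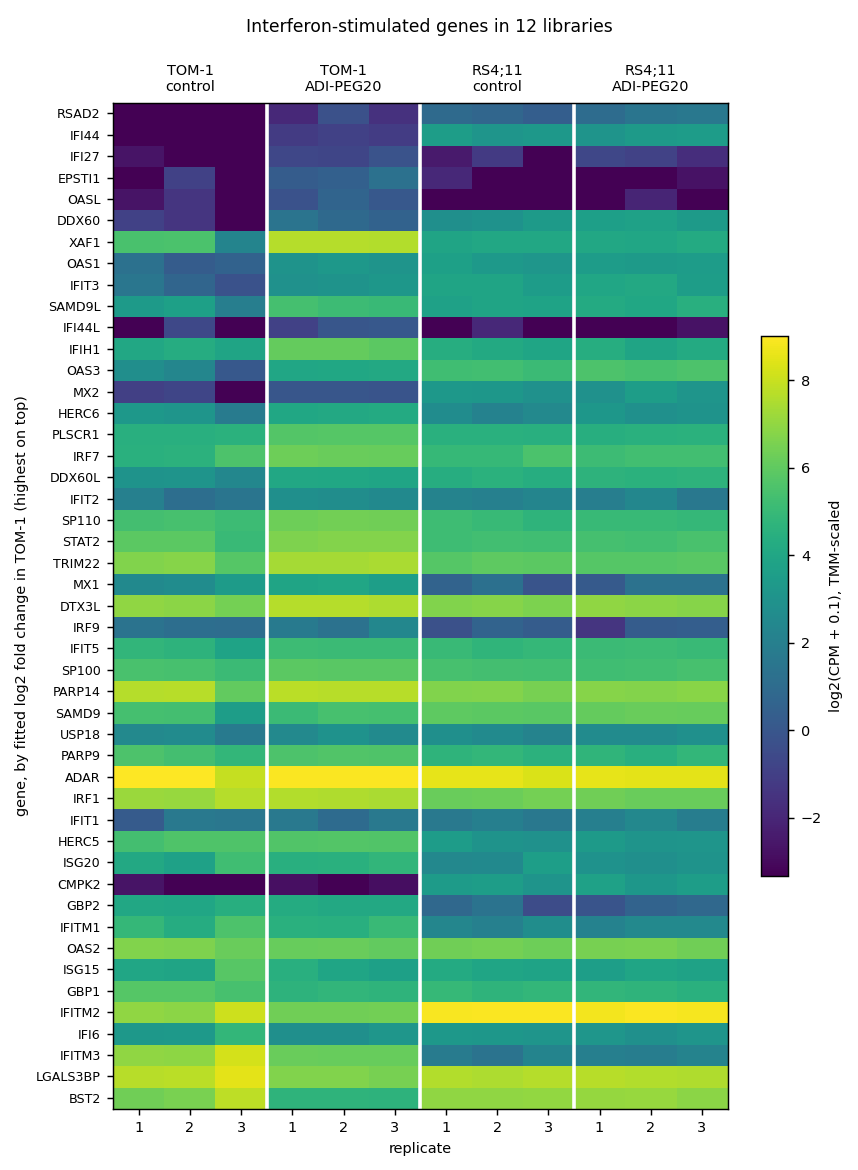
Log2(CPM + 0.1), scaled by TMM, of the 47 genes (rows, ordered by the fitted log2 fold change in TOM-1) in the 12 libraries (columns, by group and replicate). The upper rows brighten from control to treated TOM-1, the lowest rows darken, and the RS4;11 columns look alike with and without the drug.

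Among the transcription factors, STAT2 and IRF7 rose and IRF1 and IRF9 did not pass with all libraries. Values are CPM scaled by TMM, given in replicate order. STAT2 (chr12:56341597-56360155), a subunit of ISGF3, was at 60.4, 60.1 and 32.7 CPM in control TOM-1 and at 100.4, 106.8 and 105.4 with ADI-PEG20. All treated libraries lay above all controls, by 1.03 ± 0.19 on the log2 scale (± SE, adjusted p = 0.00196), or 0.79 ± 0.08 without control replicate 3 (adjusted p = 6.33e-08). IRF7 (chr11:612553-615999), the factor that drives interferon alpha genes, was at 22.7, 24.6 and 47.7 CPM in control and at 77.8, 72.9 and 71.9 with the drug. The groups did not overlap although control replicate 3 was about as far above the other controls as it was below the treated libraries; the log2 change was 1.23 ± 0.26 (adjusted p = 0.00354) and 1.65 ± 0.14 without that library (adjusted p = 2.69e-09).

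IRF1 (chr5:132481609-132490798), a factor also induced by interferon gamma, was at 144.3, 139.3 and 199.1 CPM in control and 192.8, 186.5 and 176.8 with the drug. Control replicate 3 was the highest of the 6, and the call depended on it: 0.20 ± 0.14 with all libraries (adjusted p = 0.32) and 0.38 ± 0.08 without it (adjusted p = 0.000409). IRF9 (chr14:24161053-24166565), the DNA-binding subunit of ISGF3, was low, at 2.53, 2.11 and 2.04 CPM in control and 3.13, 2.41 and 5.15 with the drug. Its log2 difference of 0.67 ± 0.50 did not pass (adjusted p = 0.344; 0.375 without control replicate 3). Of its exonic bases, 48.4% are shared with another gene model on the same strand, AL136295.5, and 22.0% of those of IRF1 with genes on the opposite strand, so some of their reads may have been assigned elsewhere or discarded. Of the 10 STAT and IRF genes listed, 5 rose and none fell with all libraries (against 15.9% of all genes in each direction), and 6 rose and none fell without control replicate 3 (against 21.8% and 19.8%).

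IFIH1, DDX60 and DDX60L, 3 helicase genes of the response, rose, while RIGI and DHX58, helicase genes listed beside the 47, did not pass (0.94 and -0.18, adjusted p = 0.506 and 0.565). IFIH1 (chr2:162267079-162318703), which encodes MDA5, a cytosolic sensor of long double-stranded RNA, went from 16.5, 19.6 and 14.5 CPM to 68.1, 67.7 and 60.7. The 2 groups were tight and far apart, control replicate 3 included, with a log2 change of 1.96 ± 0.17 (adjusted p = 1.35e-05; 1.86 without it, adjusted p = 5.71e-10). DDX60 (chr4:168216293-168318807), a helicase of the same response, started from 0.426, 0.273 and 0 CPM and reached 2.57, 1.79 and 1.38. It remained a low transcript, and its log2 change of 2.84 ± 0.53 (adjusted p = 0.00195) was 2.39 ± 0.38 without control replicate 3 (adjusted p = 2.37e-05). Its paralogue DDX60L rose by 1.17 (adjusted p = 0.00043; 0.99 without control replicate 3). ADAR, the RNA editor whose interferon-induced isoform limits MDA5 sensing, was at 487.0 to 488.8 CPM with the drug and did not pass in either fit (0.20 and -0.07).

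The oligoadenylate synthetases, which make the 2′-5′ oligoadenylate that activates RNase L, split. OAS1 (chr12:112906777-112933222) was at 2.36, 1.09 and 1.38 CPM in control and at 8.09, 9.39 and 8.34 with ADI-PEG20, without overlap. Its log2 change was 2.39 ± 0.27 (adjusted p = 8.33e-05; 2.28 without control replicate 3, adjusted p = 4.15e-07). OAS3 was at 6.82, 4.99 and 0.938 CPM in control and at 15.7, 16.1 and 17.6 with the drug. Most of the spread of the OAS3 control came from replicate 3, and the log2 change of 1.91 ± 0.42 (adjusted p = 0.00505) became 1.46 ± 0.14 without it (adjusted p = 2e-08). OAS2, the neighbour of OAS3, went the other way: 102.1, 97.7 and 72.6 CPM in control and 71.8, 73.1 and 67.1 with the drug. Its difference of -0.36 did not pass with all libraries (adjusted p = 0.0583), and without control replicate 3 it fell by 0.50 (adjusted p = 1.17e-05). OASL was near the floor in control, at 0.0568, 0.273 and 0 CPM, and at 0.771, 1.49 and 0.944 with the drug, and did not pass (adjusted p = 0.0895).

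The IFIT proteins bind foreign RNA 5′ ends or one another. IFIT3 (chr10:89327894-89340971), which stabilises IFIT1, rose most of the 4 genes measured, from 2.73, 1.52 and 0.772 CPM to 7.58, 7.94 and 9.01. All treated libraries were above all controls, with a log2 change of 2.24 ± 0.34 (adjusted p = 0.000551; 1.91 without control replicate 3, adjusted p = 1.71e-06). IFIT2 rose by 1.12 (adjusted p = 0.0123) and IFIT5 by 0.60 (adjusted p = 0.0426), or by 1.06 and 0.36 without control replicate 3. The IFIT5 call was fragile: it was lost in 10 of 12 fits that each left out 1 library, in all but those without TOM-1 control replicate 1 or 3. IFIT1 was at 1.08, 3.12 and 2.92 CPM in control and 3.08, 1.87 and 3.03 with the drug, overlapping values that differed by 0.17 ± 0.40 (adjusted p = 0.8).

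XAF1, SAMD9L and PLSCR1 also rose. XAF1 (chr17:6755447-6775647), a proapoptotic antagonist of XIAP, was at 44.0, 45.2 and 4.69 CPM in control and at 198.3, 202.6 and 192.5 with ADI-PEG20. Against control replicates 1 and 2 alone the log2 change was 2.15 ± 0.09 (adjusted p = 3.35e-14), and with replicate 3, the lowest library, it was 2.65 ± 0.55 (adjusted p = 0.0035). The exonic bases of XAF1 overlap the antisense gene PRAL over 38.3%, and whether strand was used in counting is not given in the sources used here. SAMD9L, a repressor of translation, rose from 10.5, 12.9 and 3.75 CPM to 41.6, 35.4 and 33.3 (log2 2.01 ± 0.33, adjusted p = 0.000859; 1.65 without control replicate 3, adjusted p = 1.36e-08). Its paralogue SAMD9 overlapped between the groups, at 41.1, 39.5 and 11.4 CPM in control and 34.2, 43.4 and 41.7 with the drug, and did not pass (adjusted p = 0.455). PLSCR1, a phospholipid scramblase with antiviral activity, was at 21.9, 21.9 and 23.4 CPM in control and rose to 52.1, 54.8 and 54.8 with the drug (log2 1.27, adjusted p = 1.28e-05; 1.30 without control replicate 3).

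The nuclear body genes SP110 and SP100 rose by 1.04 (adjusted p = 0.000208) and 0.51 (adjusted p = 0.00846), or by 0.97 and 0.40 without control replicate 3. Both encode speckled-protein family members found at nuclear bodies. Of the ubiquitin ligase genes, TRIM22 rose by 0.91 (adjusted p = 0.00612), HERC6 by 1.27 (adjusted p = 0.00861) and DTX3L by 0.82 (adjusted p = 0.00113), while HERC5 did not pass. Without control replicate 3 the 3 rose by 0.65, 0.94 and 0.67. PARP9, the partner of DTX3L, was at 48.0, 40.0 and 28.8 CPM in control and 47.9, 50.8 and 48.9 with the drug and did not pass in either fit (adjusted p = 0.169 and 0.312). PARP14 did not pass either (adjusted p = 0.347), with all 3 treated libraries, at 205.0 to 216.6 CPM, close to control replicates 1 and 2 at 199.3 and 206.6.

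Several genes that define a strong interferon response were almost silent in control TOM-1, and some of those rose while staying rare. IFI44 had 0 counts in all 3 controls and 28 counts over the treated libraries, which is at least 3.04-fold higher when the controls are set to 3 counts per library (adjusted p = 0.000155). RSAD2, which encodes the antiviral enzyme viperin, had 0 counts in the controls and 29 in the treated libraries, at least 3.08-fold higher (adjusted p = 0.00229). IFI27, a mitochondrial protein, went from 2 counts to 45, a ratio of 23.7 with a 95% counting interval of 6.19 to 202.0 (exact binomial). Its adjusted p of 0.0217 rose above 0.05 on leaving out control replicate 2 or any single treated TOM-1 library, to at most 0.0725. CMPK2, a neighbour of RSAD2, had 2 counts in each group and no fold is given.

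EPSTI1 and IFI44L were also rare and did not pass. EPSTI1 was at 0, 0.429 and 0 CPM in control and at 1.11, 1.26 and 2.36 with the drug (adjusted p = 0.0898), and IFI44L was at 0, 0.546 and 0 and then at 0.428, 0.878 and 0.944 (adjusted p = 0.343). For both genes control replicate 2 was the only control with a count, and without it each passed (adjusted p = 0.0118 and 0.0317). The dynamin-like GTPases MX1 and MX2 did not pass with all libraries. MX1 was at 5.71, 6.24 and 10.9 CPM in control and 14.9, 15.7 and 11.8 with the drug, with an adjusted p of 0.0971 that became 0.00342 without control replicate 3 (log2 0.90 and 1.24). MX2 was at 0.398, 0.507 and 0 CPM and then 0.899, 0.878 and 0.826, with an adjusted p of 0.0719, and it passed without control replicate 2 or without replicate 3 (adjusted p = 0.0439 for the latter).

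**Figure D3:**
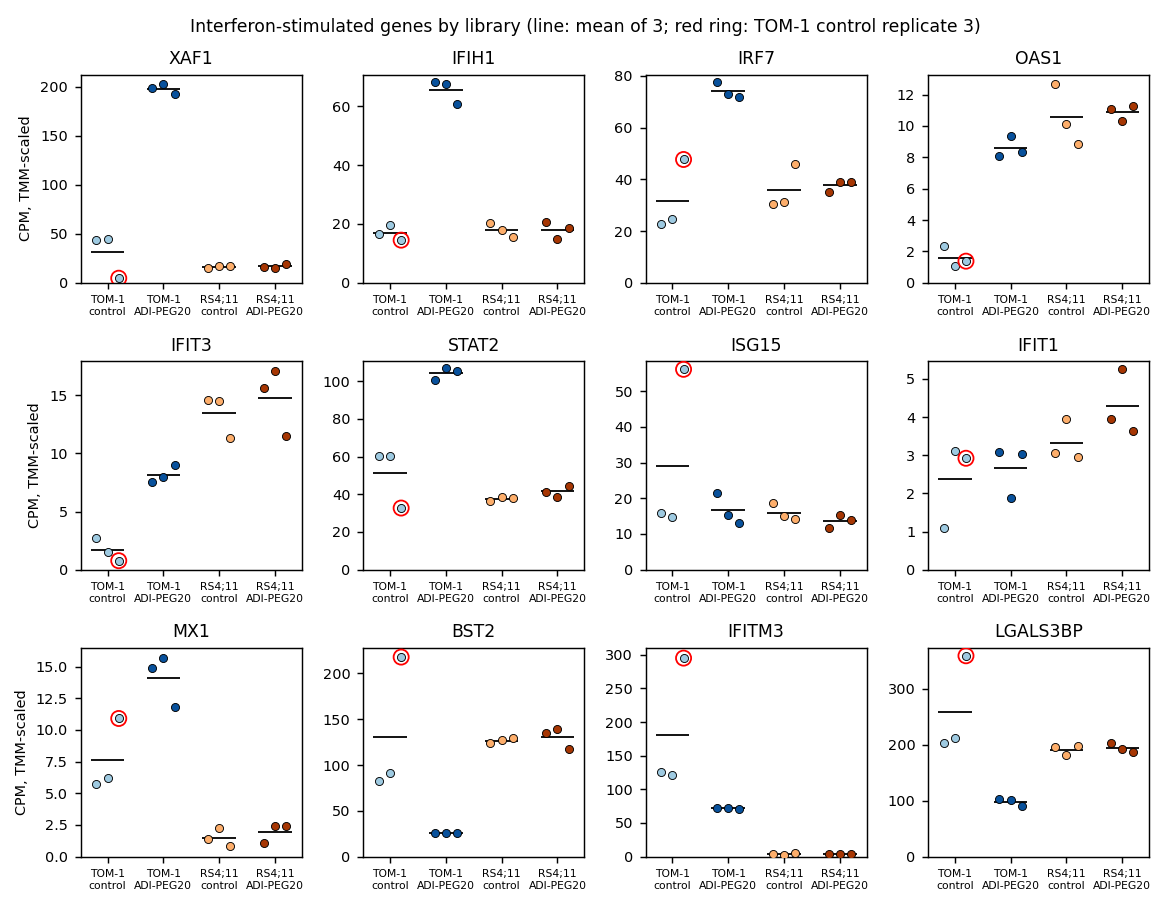
TMM-scaled CPM of 12 of the genes in each library (points), with the mean of 3 libraries (line) and TOM-1 control replicate 3 ringed in red; each vertical axis starts at 0. XAF1, IFIH1, IRF7, OAS1, IFIT3 and STAT2 are higher in treated than in control TOM-1, BST2, IFITM3 and LGALS3BP are lower, and ISG15 is set apart by the ringed library.

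The genes that fell included membrane proteins that restrict viruses. BST2 (chr19:17402939-17405648), or tetherin, which holds budding virions at the cell surface, was at 82.1, 91.2 and 217.9 CPM in control and at 26.0, 25.8 and 25.3 with ADI-PEG20. It fell by 2.34 ± 0.30 on the log2 scale (adjusted p = 0.000185) and by 1.76 ± 0.08 without control replicate 3 (adjusted p = 2.74e-13). IFITM3 (chr11:319669-327537), which blocks viral entry at endosomes, was at 125.4, 121.9 and 295.0 CPM in control and at 72.5, 72.0 and 71.1 with the drug. The treated libraries lay below all controls, and the fall of 1.33 ± 0.31 (adjusted p = 0.00615) was 0.79 ± 0.11 without the highest control, replicate 3 (adjusted p = 4.54e-06). LGALS3BP (chr17:78971238-78980109), a secreted galectin-binding glycoprotein, went from 203.8, 212.0 and 359.2 CPM to 102.2, 100.8 and 90.4. That was a fall of 1.40 ± 0.19 (adjusted p = 0.000242), or 1.09 without control replicate 3 (adjusted p = 3.3e-11).

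IFITM2, a close relative of IFITM3, fell by 1.03 (adjusted p = 0.00842) and by 0.54 without control replicate 3 (adjusted p = 1.81e-07). IFITM1 did not pass in either fit, at 29.2, 20.0 and 47.7 CPM in control and 22.6, 21.8 and 32.4 with the drug. The IFITM genes are near-identical copies in a cluster, and IFITM1 and IFITM2 share 32.5% and 22.7% of their exonic bases with each other, so their split of reads is uncertain. GBP1, a GTPase that coats intracellular bacteria, fell by 0.94 (adjusted p = 0.000446; -1.05 without control replicate 3), from 54.6, 53.9 and 42.7 CPM to 24.8, 27.6 and 26.2. Its paralogue GBP2 was at 15.6 to 21.5 CPM in control and 17.3 to 19.5 with the drug and did not pass (adjusted p = 1). IFI6, a mitochondrial and endoplasmic reticulum protein, fell by 1.07 with all libraries (adjusted p = 0.04), and the call was lost without control replicate 3 (-0.35, adjusted p = 0.148). It was also lost on leaving out RS4;11 control replicate 1, treated RS4;11 replicate 1 or any single treated TOM-1 library.

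ISG15, HERC5 and USP18 did not pass with all libraries. ISG15, a ubiquitin-like modifier and usually one of the most induced of these genes, was at 15.9, 14.7 and 56.1 CPM in control and 21.6, 15.4 and 13.0 with the drug. Control replicate 3 was the high library, and the log2 difference was -0.79 ± 0.43 with it (adjusted p = 0.188) and 0.12 ± 0.19 without it (adjusted p = 0.696). When control replicate 2 was left out instead, ISG15 passed as lower (adjusted p = 0.0492). HERC5, the ligase that attaches ISG15, was at 40.8, 48.7 and 49.5 CPM and then 51.4, 53.0 and 51.4, higher in all 3 treated libraries but short of the threshold (adjusted p = 0.481). USP18, which removes ISG15 and inhibits the receptor, was at 5.54, 6.08 and 3.26 CPM and then 5.44, 7.75 and 5.82 (adjusted p = 0.375). UBA7, the activating enzyme for ISG15 and listed beside the 47, fell by 0.45 (adjusted p = 0.0147; -0.36 without control replicate 3). ISG20, an exonuclease and no relative of ISG15, was at 17.3, 13.2 and 37.2 CPM and then 21.8, 22.8 and 28.2. It passed only without control replicate 3 (0.66, adjusted p = 0.0287).

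RS4;11 gave no call. None of the 47 genes passed with all libraries (0 of 17349 genes did), none had an unadjusted p under 0.05 in edgeR, and DESeq2 called 0. Among the 43 genes with a mean of at least 1 CPM in control or treated RS4;11, log2 differences ran from -0.36 to 0.72. IFIH1 was at 20.2, 18.0 and 15.4 CPM in control RS4;11 and 20.5, 14.9 and 18.7 with the drug. XAF1 was at 14.8, 16.7 and 16.7 and then 16.6, 15.5 and 18.7. BST2 was at 123.7, 127.1 and 129.3 and then 135.2, 139.0 and 117.1. The 3 genes therefore overlapped between the groups, with log2 differences of 0.02 ± 0.17, 0.08 ± 0.53 and 0.04 ± 0.29.

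Without TOM-1 control replicate 3, which enters the shared estimate of spread, 0.317% of all genes passed in RS4;11, with none of the 47 among them. In that fit 7 of the 47 had an unadjusted p under 0.05 in edgeR, against 2207 of all 18321 genes, a similar share. All 7 were higher with the drug, with adjusted p from 0.15 to 0.387. Log2 differences were 0.44 for SAMD9L, 0.57 for HERC6, 0.31 for OAS3, 0.19 for DTX3L, 0.23 for SAMD9, 0.15 for PARP14 and 0.51 for DDX60. In 8 genes the 3 treated libraries were each higher than the 3 controls (17% of the 47, against 7.72% of all genes), namely HERC6, IFIT5, OAS3, PARP14, RSAD2, SAMD9, SAMD9L and STAT2. In 0 genes did they all lie below, against 9.05% of all genes. OAS3 shows the size of these differences, with 38.1, 39.1 and 34.1 CPM in control RS4;11 and 47.4, 43.6 and 47 with the drug. STAT2 was at 36.4, 38.4 and 38.0 and then 41.4, 38.8 and 44.3 CPM (log2 0.14 ± 0.19). IRF1 and IRF9 differed by -0.04 and -0.36, and IRF7 by 0.07, at 30.5, 31.1 and 46.1 CPM and then 35.3, 39.1 and 38.9.

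**Figure D4:**
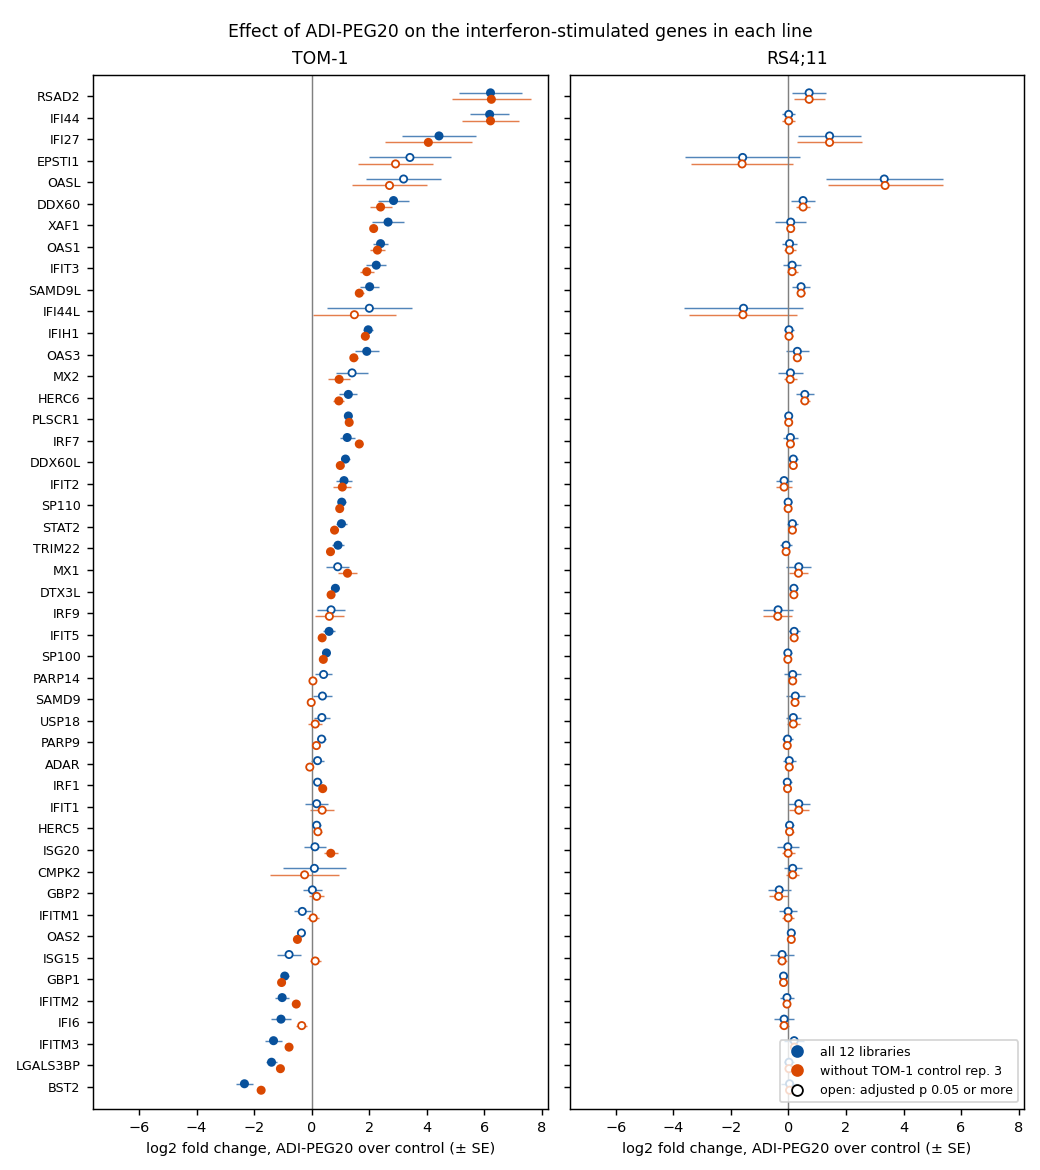
Fitted log2 fold change with ADI-PEG20 (± SE, horizontal axis) for each of the 47 genes in TOM-1 (left) and RS4;11 (right), with all 12 libraries (blue) and without TOM-1 control replicate 3 (orange); open symbols did not pass an adjusted p of 0.05. In TOM-1, 21 blue symbols are filled on the right of 0 and 6 on the left, and in RS4;11 none is filled. Fitted values of genes at 0 counts in a group, IFI44 and RSAD2 among them, depend on a prior count.

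The difference between the lines was tested directly, as the effect in TOM-1 minus the effect in RS4;11. It passed for 16 genes (34%, against 11.9% of all genes), 12 with the more positive effect in TOM-1 and 4 with the more negative (against 5.89% and 6.05%). The differences with the drug were for OAS1 2.35 ± 0.37 (adjusted p = 0.00222), for IFIT3 2.11 ± 0.46 (adjusted p = 0.0127), for IFIH1 1.94 ± 0.24 (adjusted p = 0.000537) and for PLSCR1 1.26 ± 0.15 (adjusted p = 0.000537). XAF1 differed by 2.58 ± 0.76 (adjusted p = 0.046), DDX60 by 2.34 ± 0.68 (adjusted p = 0.0439) and SAMD9L by 1.56 ± 0.46 (adjusted p = 0.0449). IFI44 and RSAD2 also passed (adjusted p = 0.00106 and 0.023), from controls at 0 counts in TOM-1 and at 675 and 107 counts in RS4;11. BST2 differed by -2.38 ± 0.41 (adjusted p = 0.0039), LGALS3BP by -1.42 (adjusted p = 0.00559), IFITM3 by -1.53 (adjusted p = 0.0495) and GBP1 by -0.77 (adjusted p = 0.0266). DDX60L, SP110 and TRIM22 made up the rest, between 0.99 and 1.05.

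The number of these differences depended on which libraries were used. With TOM-1 control replicate 3 left out it was 25 (against 30.4% of all genes), 19 and 6 (against 15.7% and 14.7%), and the additional 9 were DTX3L, IFIT2, IFITM2, IRF1, IRF7, OAS2, OAS3, SP100 and STAT2. OAS3 then differed by 1.15 (adjusted p = 2.45e-05, against 0.091 with all libraries), STAT2 by 0.65 (9.8e-05, against 0.0552), IRF7 by 1.57 (7.11e-07, against 0.0563) and IRF1 by 0.42 (0.00462, against 0.504). IRF9 did not pass in either fit (adjusted p = 0.406 and 0.344). The number was 8 to 10 on leaving out RS4;11 control replicate 1 or 2, or any single treated library of either line (against 6.39% to 7.24% of all genes). BST2, IFI44, IFIH1, IFIT3, LGALS3BP, OAS1, PLSCR1 and SP110 passed in all 12 of the fits that left out 1 library; the calls of the other 8, XAF1 and DDX60 included, were each lost in at least 4.

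In control culture the lines differed at 21 of the 47 genes (44.7%, against 34.7% of all genes), 10 higher in TOM-1 and 11 higher in RS4;11 (against 16.2% and 18.4%). With TOM-1 control replicate 3 left out, 32 differed (against 52.8%), 19 and 13 (against 25.4% and 27.5%). All 21 passed in both fits, and 11 more passed without that library. Among those of the 21 with a mean of at least 1 CPM in every group, the log2 difference moved by at most 0.55 between the fits. Several antiviral effectors were much higher in RS4;11. IFI44 was at 11.5, 8.61 and 9.42 CPM in control RS4;11 and without a count in control TOM-1, at least 80.4-fold higher (adjusted p = 1.21e-07). CMPK2 was at 10.8, 11.5 and 8.27 CPM in RS4;11, with 702 counts against 2, a ratio of 405.0 (95% counting interval 112.0 to 3350.0, adjusted p = 2.53e-07). RSAD2 had 107 counts in RS4;11 and 0 in TOM-1, at least 12.6-fold higher (adjusted p = 0.000159).

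DDX60, MX2, OAS3, IFIT3 and OAS1 followed the same direction. DDX60 was at 6.95, 7.79 and 10.6 CPM in control RS4;11, and TOM-1 lay lower by -4.98 ± 0.54 on the log2 scale (adjusted p = 1.62e-05). MX2, at 9.57, 9.15 and 7.56 CPM in RS4;11, differed by -4.73 ± 0.54 (adjusted p = 2.7e-05) and OAS3 by -3.08 ± 0.44 (adjusted p = 0.000149). IFIT3, at 14.6, 14.5 and 11.3 CPM in RS4;11, differed by -2.96 ± 0.35 (adjusted p = 3.47e-05) and OAS1, at 12.7, 10.1 and 8.85, by -2.69 ± 0.28 (adjusted p = 1.04e-05). IFIT3 in untreated RS4;11 thus lay above all 3 treated TOM-1 libraries, while OAS1 overlapped them; treated TOM-1 against untreated RS4;11 was not tested.

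IFITM3 and GBP2 were among the genes higher in TOM-1. IFITM3 was at 3.43, 2.51 and 4.64 CPM in control RS4;11, and TOM-1 was higher by 5.68 ± 0.38 (adjusted p = 2.66e-07). GBP2 was at 1.72, 2.47 and 0.622 CPM in RS4;11, and TOM-1 was higher by 3.46 ± 0.39 (adjusted p = 2.27e-05). IFITM1, HERC5 and MX1 were higher in TOM-1 by 2.65, 2.38 and 2.32. IFITM2, in contrast, was at 479.5, 485.4 and 485.8 CPM in RS4;11 and lower in TOM-1 by -1.52 (adjusted p = 0.000537). Of the factors, IRF1 was higher in TOM-1 by 1.05 ± 0.15 (adjusted p = 0.000134), while STAT2, IRF7 and IRF9 did not pass (0.44, -0.18 and 1.03; adjusted p = 0.0986, 0.631 and 0.148). Without control replicate 3, STAT2 passed as higher in TOM-1 (0.68) and IRF7 as lower (-0.60).

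With ADI-PEG20 in both lines, 35 of the 47 genes differed between them (74.5%, against 47.2% of all genes), 24 higher in TOM-1 and 11 higher in RS4;11 (against 23.1% and 24%). With TOM-1 control replicate 3 left out, 39 differed (against 62.9%), all of the 35 among them. XAF1, IFIH1 and PLSCR1, which rose in TOM-1, were among them. XAF1 was higher in TOM-1 by 3.54 ± 0.58 (adjusted p = 0.000314), IFIH1 by 1.86 ± 0.17 (adjusted p = 2.86e-06) and PLSCR1 by 1.25 ± 0.11 (adjusted p = 1.85e-06). STAT2, IRF1, IRF7 and IRF9 were all higher in TOM-1, by 1.33 ± 0.20 (adjusted p = 0.000145), 1.29 ± 0.15 (1.9e-05), 0.98 ± 0.25 (0.00761) and 2.06 ± 0.53 (0.00687). MX1 was higher by 2.86 ± 0.42 (adjusted p = 0.000147), IFITM3 by 4.15 ± 0.35 (adjusted p = 1.61e-06) and GBP2 by 3.79 ± 0.40 (adjusted p = 9.71e-06).

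Genes that were at the floor in treated RS4;11 gave ratios with wide counting intervals. EPSTI1 had 119 counts in treated TOM-1 and 1 in treated RS4;11, a ratio of 103.0 (95% counting interval 18.2 to 4120.0; adjusted p = 0.0135). OASL had 81 against 3, a ratio of 23.5 (7.75 to 116.0; adjusted p = 0.0302), and IFI44L 57 against 1, a ratio of 49.6 (8.55 to 1990.0; adjusted p = 0.0422). When single libraries were removed in turn, the IFI44L call was lost in 9 of 12 cases, all but those without a TOM-1 control. The OASL call was lost in 5, those without any single treated TOM-1 library or treated RS4;11 replicate 1 or 3 (adjusted p up to 0.109). The EPSTI1 call was lost in 2, those without treated RS4;11 replicate 1 or 2 (adjusted p up to 0.0613). In the other direction CMPK2 had 746 counts in RS4;11 and 2 in TOM-1, a ratio of 429.0 (118.0 to 3550.0; adjusted p = 1.8e-07). IFI44 was lower in treated TOM-1 by -4.71 ± 0.29 (adjusted p = 6.97e-07), MX2 by -3.40 ± 0.49 (adjusted p = 0.000131) and RSAD2 by -2.74 ± 0.63 (adjusted p = 0.005). BST2, which did not pass in control culture with all libraries (0.04, adjusted p = 0.936), was lower in treated TOM-1 by -2.34 (adjusted p = 5.1e-05). When TOM-1 control replicate 3 was left out, BST2 was lower in TOM-1 in control culture too (-0.55, adjusted p = 4.9e-06). The differences of OAS1, IFIT3 and OAS3 with the drug were -0.34 (adjusted p = 0.298), -0.85 (adjusted p = 0.0445) and -1.48 (adjusted p = 0.00994). The IFIT3 call was lost on leaving out any single treated TOM-1 library, RS4;11 control replicate 1 or treated RS4;11 replicate 1 or 2 (adjusted p up to 0.111).

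**Figure D5:**
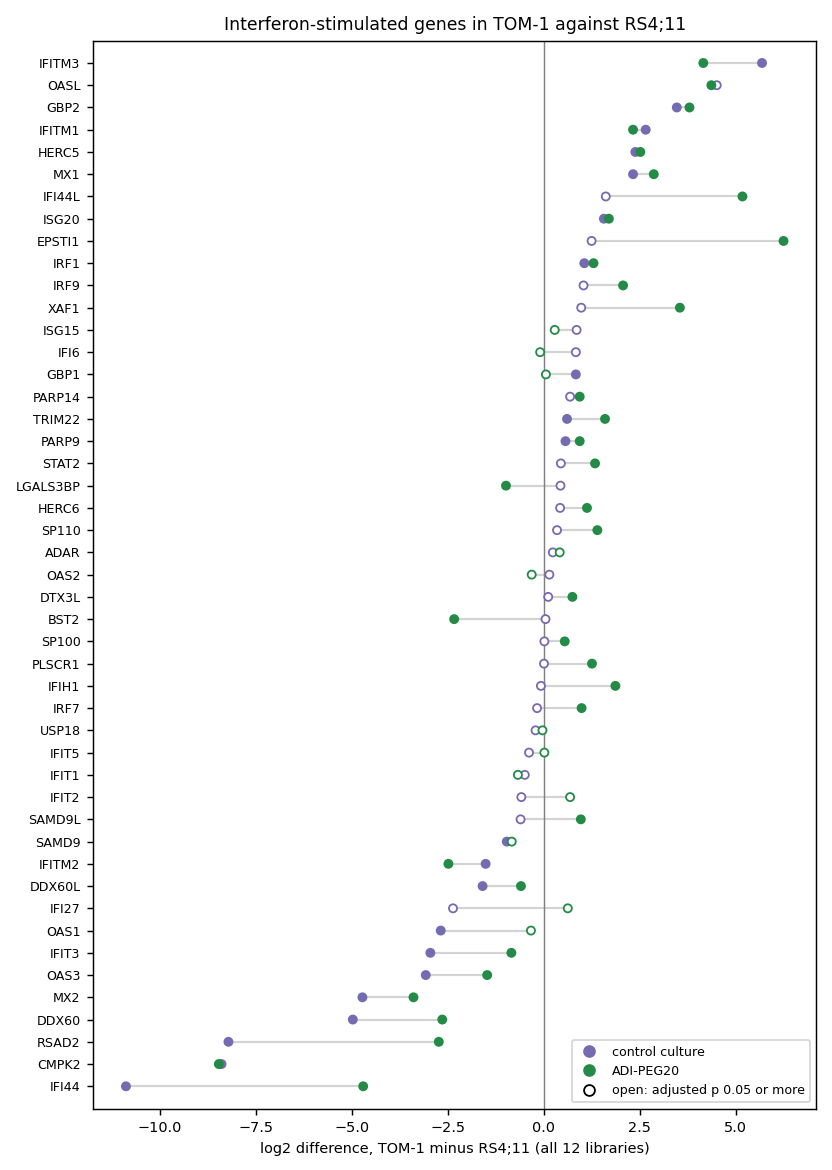
Fitted log2 difference, TOM-1 minus RS4;11, for each of the 47 genes in control culture (purple) and with ADI-PEG20 (green), all 12 libraries; open symbols did not pass an adjusted p of 0.05, and a grey line joins the 2 values of a gene. XAF1, IFIH1 and PLSCR1 move to the right with the drug and BST2 to the left, while IFI44, CMPK2 and DDX60 stay to the left of 0; values for genes at 0 counts in a group depend on a prior count.

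Ordering the 4 group means of each gene showed how the lines interleave. Treated TOM-1 had the highest mean for 26 genes and treated RS4;11 for 13, or 27 and 13 without TOM-1 control replicate 3. For 11 genes the order ran from control TOM-1 through treated TOM-1 and control RS4;11 to treated RS4;11: CMPK2, DDX60, DDX60L, IFI44, IFIT1, IFIT3, MX2, OAS1, OAS3, RSAD2 and SAMD9. The step within TOM-1 passed for 7 of the 11, not for CMPK2, IFIT1, MX2 and SAMD9, and the step within RS4;11 for none. Without TOM-1 control replicate 3 the order held for 9, with control above treated TOM-1 for CMPK2 and SAMD9. For IFIH1, IRF7, PLSCR1, SAMD9L, IFIT2, IFIT5 and IFI27 both RS4;11 means lay between control and treated TOM-1. The step between the control groups of the lines passed for none of them with all libraries (adjusted p from 0.146 to 0.995). For IFIT2, IFIT5 and IFI27 the difference between the treated groups did not pass either. Without TOM-1 control replicate 3, control RS4;11 was the lowest for IFIH1.

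Scaled by exonic length, which allows genes to be compared with each other, the level was concentrated in few of them. In control TOM-1 the highest were IFITM3 at 134.1 CPM per kilobase, BST2 at 116.5, IFITM2 at 109.6, LGALS3BP at 72.1 and ADAR at 43.7. Without replicate 3 these were 91.8 for IFITM3, 77.4 for BST2, 77.8 for IFITM2, 58.0 for LGALS3BP and 52.9 for ADAR. With ADI-PEG20 they were IFITM2 at 53.6, IFITM3 at 53.3, ADAR at 50.3, DTX3L at 33.2 and XAF1 at 29.9. In control RS4;11 IFITM2 led at 313.4, before BST2 at 113.2, LGALS3BP at 53.4 and ADAR at 37.1. The summed level of the 47 genes, before TMM scaling, was 2278.5, 2297.9 and 1984.8 CPM in control TOM-1 and 2866.0, 2845.3 and 2859.9 with the drug. In RS4;11 it was 2134.1, 2143.7 and 2112.2 CPM and then 2223.1, 2214.7 and 2238.5.

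Further genes of the pathway were listed beside the 47. Of 21 interferon genes of types I, II and III, all had 0 counts in each of the 6 RS4;11 libraries, which allows up to 3 counts a gene and library. In TOM-1 the 21 genes summed to between 0 and 158 counts in control libraries and between 261 and 312 in treated ones, with the 0 in control replicate 3. IFNW1, interferon omega, had 57, 47 and 0 counts in control and 156, 133 and 117 with the drug. It did not pass with all libraries (log2 2.21, adjusted p = 0.127) and passed without control replicate 3 (1.65, adjusted p = 0.00746). IFNB1, interferon beta, had 45, 11 and 0 counts and then 60, 43 and 34, and did not pass (adjusted p = 0.322 and 0.321). IFNA21 had 45, 19 and 0 counts and then 52, 84 and 70, and IFNA7 had 4, 0 and 0 and then 20, 11 and 11; neither passed. IFNW1 was at 4.6 to 6.68 CPM in treated TOM-1. Of 5 markers of plasmacytoid dendritic cells, a professional source of interferon, 3 were above 3 counts in TOM-1, namely LILRA4, TCF4 and IL3RA. CLEC4C and GZMB were at 0 there. The 5 summed to 112.2 to 196.1 CPM in control TOM-1, replicate 3 included, and 203.7 to 223.5 with the drug, and to 21.5 to 27.1 in RS4;11. Their part in the interferon counts was not tested.

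Of the 9 receptor and kinase genes, 3 rose and 1 fell in TOM-1, where 15.9% of all genes went each way. Without control replicate 3 it was 4 and 1, where 21.8% and 19.8% of all genes did so. IFNAR1 and IFNAR2, the subunits of the type I receptor, did not pass (0.38, adjusted p = 0.104; -0.41, adjusted p = 0.265). IFNAR2 was low, at 3.15, 3.32 and 4.03 CPM in control TOM-1 and 2.65, 2.71 and 2.52 with the drug. Its exonic bases are shared over 44.2% with AP000295.1 on the same strand and over 39.1% with IL10RB-DT on the opposite strand. Some of its reads may therefore have been assigned elsewhere or discarded. JAK1, a kinase of several cytokine receptors, rose by 0.80 (adjusted p = 0.0309; 0.49 without control replicate 3), IFNGR1 by 0.68 and IFNLR1 by 0.61, and IFNGR2 fell by 0.62. Of the 14 sensor and adaptor genes tested, 2 rose and 1 fell, or 3 and 5 without control replicate 3, against the same shares of all genes. CGAS, the sensor of cytosolic DNA, rose by 1.04 ± 0.14 (adjusted p = 0.000215) from 43.3, 45.6 and 59.9 CPM to 105.2, 105.4 and 94.1, and STING1, which acts below it, by 0.62 (adjusted p = 0.0306). SAMHD1, a nucleotide hydrolase, fell by 1.00 (adjusted p = 0.00357) from an already low 2.05, 1.99 and 1.49 CPM. RIGI, which encodes the RNA sensor RIG-I, was at 0.767, 0.663 and 0 CPM in control TOM-1 and at 0.128, 1.34 and 1.38 with the drug, and did not pass (0.94, adjusted p = 0.506).

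Of the 6 inhibitors tested, PIAS1 rose by 0.64 (adjusted p = 0.0417) and PTPN6, which encodes the phosphatase SHP-1, fell by 1.64 ± 0.18 (adjusted p = 5.3e-05), from 124.0, 131.1 and 206.2 CPM to 46.2, 47.6 and 53.8. A further list of 40 interferon targets outside the 47 moved in both directions. Of 37 tested, 8 rose and 8 fell (against 15.9% of all genes each way), with a median of -0.03. Without control replicate 3 it was 10 and 14 of 38 (against 21.8% and 19.8%). SLFN5 rose from 4.15, 2.34 and 0 CPM to 45.6, 40.4 and 43.5 (4.23 ± 0.63, adjusted p = 0.000471; 3.69 without control replicate 3), and TDRD7 by 1.09 (adjusted p = 0.000805). LY6E fell from 75.3, 73.5 and 215.1 CPM to 15.5, 18.3 and 18.2 (-2.80 ± 0.35, adjusted p = 0.000149; -2.10 without control replicate 3), and LAP3 fell by 0.67 (adjusted p = 0.000795). Over all 70 listed pathway genes tested outside the 47, 16 rose and 11 fell in TOM-1, against 15.9% of all genes in each direction, and 0 passed in RS4;11. Without control replicate 3, 21 rose and 20 fell of 71 tested (against 21.8% and 19.8%).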

How the data were processed

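Per the labels, a column kit was used for extraction and libraries were made by poly(A) tail capture. The deposited table holds raw counts, not normalized, of reads per Ensembl gene, and the sample descriptions name the column that belongs to each library. The submitters' processing notes name STAR, SAMtools, featureCounts and hg38; versions, the annotation release, the use of strand and the handling of multi-mapped reads are not given in the sources used here. Of the 60664 genes, 29301 had 0 counts in every library.

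The whole table was fitted in R 4.3.3 with edgeR 4.0.16: filterByExpr (17349 genes kept, 18321 without TOM-1 control replicate 3), TMM scaling, a group-means model over all 12 libraries, glmQLFit and glmQLFTest, Benjamini-Hochberg adjustment over all tested genes, and a threshold of 0.05. The SE is the log2 fold change divided by the square root of F. Levels are CPM on TMM-scaled totals. Libraries of a group differed by more than counting noise, so none was merged. Alternatives were DESeq2 size factors, upper-quartile scaling, no filter, a mean of 10 counts, the DESeq2 1.42.0 Wald test, the replicate number as a block, the groups compared alone and each library left out. The block or DESeq2 combined with leaving out TOM-1 control replicate 3 was chosen after seeing the data. The script was tested on simulated data.

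The 47 genes and the lists were chosen with earlier results of these data known. Full statistics were given to STAT2, IRF1, IRF7 and IRF9 and, per comparison, to up to 10 of the 47 genes with the largest log2 change among those past the threshold in either fit and at a mean of 1 CPM or more. At most 4 genes per further list, those with the lowest p in TOM-1, were named, and also RIGI, IFNB1, IFNAR1 and IFNAR2; some items that this rule would name are not reported here. Other values of the 47 genes were added so that each is accounted for. Gene positions, exonic lengths and overlaps come from GENCODE 29 (GRCh38), and promoters from RefSeq (GRCh38.p14).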

Additional observations from a re-analysis of the deposited data

Results flagged for a closer look

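The effect of ADI-PEG20 differed between the lines for 16 of the 47 genes by the test of the difference itself, given here as the log2 effect in TOM-1 minus that in RS4;11. It was negative for BST2 (-2.38), IFITM3 (-1.53), LGALS3BP (-1.42) and GBP1 (-0.77). It was positive for TRIM22 (0.99), DDX60L (1.00), SP110 (1.05), PLSCR1 (1.26), SAMD9L (1.56), IFIH1 (1.94), IFIT3 (2.11), DDX60 (2.34), OAS1 (2.35) and XAF1 (2.58). The fitted values of RSAD2 (5.48) and IFI44 (6.17) start from 0 counts in control TOM-1 and depend on a prior count; their increases in TOM-1 were at least 3.08-fold and at least 3.04-fold. All 16 kept their direction and passed without TOM-1 control replicate 3. No group held enough libraries for a check of single outlying samples.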

How the results depend on the processing

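In TOM-1 the count of 27 genes stayed between 24 and 31 in the fits that each left out 1 library, and was 15 when only the groups compared were fitted (44 of the 47 tested, fewer libraries). In RS4;11 it was 0 in every fit run. In the DESeq2 fit without TOM-1 control replicate 3, which called 1.3% of all genes, 22 of the 47 had no adjusted p there. The count of differences between the effects, 16, ran from 8 to 25 over the fits without 1 library (6.39% to 30.4% of all genes). It was 25 with the block and 25 with DESeq2 when TOM-1 control replicate 3 was also left out (31.2% and 17.8%). In control culture the count of 21 ran from 18 to 32 (25.7% to 52.8% of all genes), and was 32 in each of those last fits (52.7% and 31.1%). With ADI-PEG20 in both lines the count of 35 ran from 29 to 39 (37.4% to 62.9% of all genes). Whether replicate numbers pair the samples was not settled. In TOM-1, correlations of same-numbered deviations were -0.029, -0.015 and -0.056, and differently numbered ones ran from -0.051 to 0.068. Control replicate 3 enters those deviations. Without it, same-numbered correlations were 0.026 and -0.015, and differently numbered ones ran from -0.041 to 0.041. The remaining controls then deviate from their mean by equal and opposite amounts, so neither set can show whether the samples were paired. In RS4;11, same-numbered correlations were 0.106, 0.076 and 0.257, and differently numbered ones ran from -0.167 to 0.091. With the replicate number as a block the counts were 27, 0, 14, 20 and 35. The shares of all genes were then 30.7%, 0%, 11.2%, 32.5% and 45.9%. No called gene changed sign in the fits without 1 library. Of the genes not called, 8 of 20 in TOM-1, 21 of 47 in RS4;11, 13 of 31 for the difference of effects, 8 of 26 in control culture and 3 of 12 with the drug did. Of the genes refitted under every alternative, 3 not called reversed. ISG20 in TOM-1 (0.11) ran from -0.20 to 0.66 over the fits without 1 library. BST2 between the lines in control culture (0.04) was -0.03 with the block, -0.58 with the block and -0.57 with DESeq2 when control replicate 3 was also left out, and ran from -0.55 to 0.24. DTX3L there (0.11) ran from -0.04 to 0.25. The cause was not tested. Depth limits the 7 genes at the floor in a group.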

Other observations

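The 47 genes held 15 pairs of neighbours. In TOM-1, 3 pairs were called in the same direction (IFIT2 with IFIT3, OAS1 with OAS3 and DDX60 with DDX60L), none in opposite directions, 11 had 1 gene called and 1 had neither. The following pairs were chosen after their values were seen. On chromosome 10, IFIT1 (log2 0.17, not called) lies between IFIT3 (2.24) and IFIT5 (0.60), 51574 and 8099 bases away. On chromosome 12, OAS1 (2.39) and OAS3 (1.91) lie 5129 bases apart and rose, and OAS2 (-0.36, not called with all libraries), 5145 bases beyond OAS3, fell without TOM-1 control replicate 3. SAMD9 (0.37, not called) and SAMD9L (2.01) lie 12031 bases apart on chromosome 7, and HERC6 (1.27) and HERC5 (0.17, not called) 14005 bases apart on chromosome 4. GBP1 (-0.94) fell and GBP2 (0.02, not called), 40771 bases away on chromosome 1, did not pass. The differences between neighbours were not tested.

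CMPK2 and RSAD2 overlap head to head on chromosome 2. RSAD2 went from 0 to 29 counts in TOM-1 with ADI-PEG20 while CMPK2 had 2 counts in each group; in RS4;11 the control libraries held 107 counts of RSAD2 and 702 of CMPK2.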
